A study of Mus musculus with 6 samples.

Results

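The genes described here are NRF2 and NRF1, the KEAP1 repressor, the small Maf partners, BACH1 and 3 genes that NRF2 is known to act on. They were chosen by symbol: Nfe2l2 (NRF2), Nfe2l1 (NRF1), Keap1, Mafg, Maff, Mafk, Bach1, Sqstm1 (p62), Nqo1 and Osgin1. All 10 matched 1 row each among the 37224 genes of the deposited expression table. All 10 were above 0 in every library, and all passed the filter of an RPKM of at least 1 in any library, which 12588 genes passed. RPKM counts the reads of a gene relative to its length and to the depth of the library. It is meant to let levels of different genes be set side by side. Here some differences between libraries still followed gene length, as described below, and the RPKM summed over all genes ran from 323290 to 662061 between libraries.

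NRF2 is a transcription factor of the cap'n'collar family that switches on genes of antioxidant defence and detoxification. In unstressed cells KEAP1 holds it and hands it to a CUL3 ubiquitin ligase for destruction; electrophiles and arsenite modify KEAP1 or its complexes, so NRF2 protein accumulates and enters the nucleus. There it pairs with a small Maf protein on antioxidant response elements, which BACH1, also paired with a small Maf, otherwise occupies as a repressor. Much of this control acts on proteins, which RNA-seq does not measure.

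RNA-seq was made from mouse embryonic fibroblasts (MEF, connective tissue cells grown from embryos) of C57BL/6 background, labelled as primary cells. The groups were Dot1L-/- cells given a low dose of arsenite, an inorganic form of arsenic, over 24 h, untreated Dot1L-/- cells, wild-type cells given a low dose over 24 h, and untreated wild-type cells. Dot1L is an enzyme that methylates histone H3 at lysine 79, a mark of transcribed genes; how the gene was inactivated is not given in the sources used here, and the labels speak of 2 cell lines, so genotype and line cannot be told apart. The treatment protocol lists 5 and 10 µM arsenite without saying which of them was sequenced. Each group held 1 library, so there is no replicate error: every difference is between single libraries, none was tested, and intervals are 95% intervals of counting error alone. Of the series, 2 H3K27ac ChIP-seq libraries were not analysed here.

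Depth, recovered from the whole-read steps of the RPKM values, was 11879632 reads in Dot1L null cells with arsenite, 64699847 in the null control, 10833103 in wild type with arsenite and 62972880 in the wild-type control. The controls were 5.45 (null) and 5.81 (wild type) times deeper. Dot1l, the check of the genotype label, was 4.61-fold lower in null than in wild-type cells under arsenite (counting interval 3.79 to 5.63) and 3.17-fold lower untreated (3.07 to 3.26), not absent. Of 11 fibroblast markers 8 passed the filter; their summed level was 12118 RPKM in the null with arsenite, 2275 in the null control, 4990 in wild type with arsenite and 2653 in the wild-type control. The sum hides most members. With arsenite 3 of the 8 were at least 2-fold lower in the null, near the share of all genes, 37.1%. In wild type 6 were lower (Col1a1, Col1a2, Col3a1, Dcn, Pdgfra and Pdgfrb), against 35.7% of all genes. S100a4 was the 1 higher in each, against 15.2% of all genes in the null and 12.8% in wild type. Of the 11, Thy1 was listed at 0 in all 4 libraries, and Lum and Fap at 0 in both arsenite libraries. Summed over each list, macrophage markers lay between 4.81 and 23.8 RPKM, epithelial between 0.175 and 3.05, endothelial between 0.171 and 2.23, muscle between 0.554 and 2.19, and neural between 34.7 and 122. Of the macrophage list Cd68, Cd14 and Lyz2 passed the filter, and of the neural list Sox2, Nes and Tubb3. Cdh1, Cdh5 and Des passed it from the epithelial, endothelial and muscle lists. Epcam, Olig2 and Myod1 were listed at 0 throughout. Ptprc, the pan-leukocyte gene, was at 0 in both arsenite libraries, the shallower ones, and above 0 in both controls. The part of any such difference in the results was not tested.

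Promoter windows, from 250 bases before to 50 after an annotated start (RefSeq, GRCm38.p6), were found for all 10 genes. There were 16 windows in all, since Nfe2l1 and Maff have several. The single windows of Osgin1 and Mafg lay within the annotated spans of these genes, so the 5′ end of each span was not searched. Each was searched on both strands for TGACNNNGC, the core of the antioxidant response element, for TGAGTCA, the AP-1 type element, and for TGCTGA, the motif at the edge of Maf sites. The first occurs in 14.0% of 27025 genes with a window, TGAGTCA in 5.95% and TGCTGA in 21.7%. Among the 10 genes 4 had the response element core, 1 had TGAGTCA and 4 had TGCTGA. The core was read as TGACTCCGC in Nfe2l2, 240 bases before the start, and as TGACTCTGC in the first Maff window, 112 bases before the start. On the other strand it was read as GCACGGTCA in Mafg, 222 bases before the start, and as GCGGTGTCA in Mafk, 13 bases before it. In the form searched, with C after TGA, the core stood in the windows of NRF2 itself and of every small Maf gene. It stood in those of none of the 3 targets nor of Keap1. The window of Osgin1 held TGCTGA and the reverse of TGAGTCA sharing 3 bases, together TGCTGACTCA. Read on the other strand, this holds TGACNNNGC but for G in place of that C. The element bound by NRF2 with a small Maf can contain TGAGTCA, so the Osgin1 window cannot be said to lack it. TGCTGA also occurred in Mafk, Bach1 and 3 overlapping windows of Nfe2l1. Windows of 3 genes are shown, 5′ to 3′ on the gene's strand: NRF2, with the core as searched, and its targets Osgin1 and Nqo1. The levels of these targets over the 4 libraries differ below. Capitals mark the matches; Nqo1 has none in this window, which says nothing of sites further away.
Nfe2l2, chr2:75704614-75704913, minus strand: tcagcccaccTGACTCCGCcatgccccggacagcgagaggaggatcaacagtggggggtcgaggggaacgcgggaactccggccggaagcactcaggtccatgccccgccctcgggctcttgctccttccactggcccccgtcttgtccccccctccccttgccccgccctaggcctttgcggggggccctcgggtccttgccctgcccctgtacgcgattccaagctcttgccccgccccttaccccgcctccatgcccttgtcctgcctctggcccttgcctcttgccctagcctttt
Osgin1, chr8:119436897-119437196, plus strand: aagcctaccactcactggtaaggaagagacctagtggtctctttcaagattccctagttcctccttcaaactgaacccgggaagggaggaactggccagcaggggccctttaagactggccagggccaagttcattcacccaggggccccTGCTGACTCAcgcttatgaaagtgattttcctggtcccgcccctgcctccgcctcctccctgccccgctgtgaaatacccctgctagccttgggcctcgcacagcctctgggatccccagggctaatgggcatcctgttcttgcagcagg
Nqo1, chr8:107403156-107403455, minus strand: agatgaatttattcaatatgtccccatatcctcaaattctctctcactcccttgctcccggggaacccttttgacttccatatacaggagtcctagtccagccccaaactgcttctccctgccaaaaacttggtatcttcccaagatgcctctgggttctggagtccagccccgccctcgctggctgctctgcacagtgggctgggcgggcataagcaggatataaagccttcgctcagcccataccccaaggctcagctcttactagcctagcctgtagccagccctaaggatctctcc

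NRF2 RNA was lower with arsenite in both genotypes. Nfe2l2 (ENSMUSG00000015839, protein-coding, GRCm38 chromosome 2, 75675513 to 75704663) had an RPKM of 4.88 in null cells with arsenite, 24.6 in the null control, 11.3 in wild type with arsenite and 35.5 in the wild-type control. Both arsenite libraries were below both controls, and the null was below wild type under either condition. How many of all genes have this order was not counted, and the 2 genotypes are not replicates of the treatment. In RPKM it was 5.05-fold lower with arsenite in the null (4.41 to 5.80) and 3.14-fold lower in wild type (2.86 to 3.45). In bulk RNA, fewer cells carrying a transcript and less of it per cell cannot be told apart. As a log2 difference of RPKM plus 1, the scale used for all calls, this was −2.12 in the null and −1.57 in wild type. The median of all genes stood at −0.53 and −0.56 in the same comparisons, and the differences also followed gene length, as described below. With the length trend removed Nfe2l2 was at −1.37 in the null and −0.85 in wild type, which is short of 2-fold.

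NRF1, a relative of NRF2 that is anchored in the endoplasmic reticulum and, once processed, drives proteasome genes, was the more abundant of the pair in every library. Nfe2l1 (ENSMUSG00000038615, chromosome 11, 96817414 to 96829968) had an RPKM of 13.4 in the null with arsenite, 102 in the null control, 25.2 in wild type with arsenite and 129 in the wild-type control. The arsenite libraries again lay below both controls, an order not counted over all genes. Its RPKM was 7.63-fold lower in the null (7.13 to 8.17) and 5.13-fold lower in wild type (4.87 to 5.40), and its log2 difference stayed past 2-fold with the length trend removed (−1.77 in the null, −1.23 in wild type). The ratio of Nfe2l1 to Nfe2l2 RPKM was 2.75 in the null with arsenite (2.37 to 3.20) against 4.15 in the null control (4.04 to 4.26). In wild type it was 2.23 (2.01 to 2.48) against 3.64 (3.55 to 3.72).

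**Figure D1:**
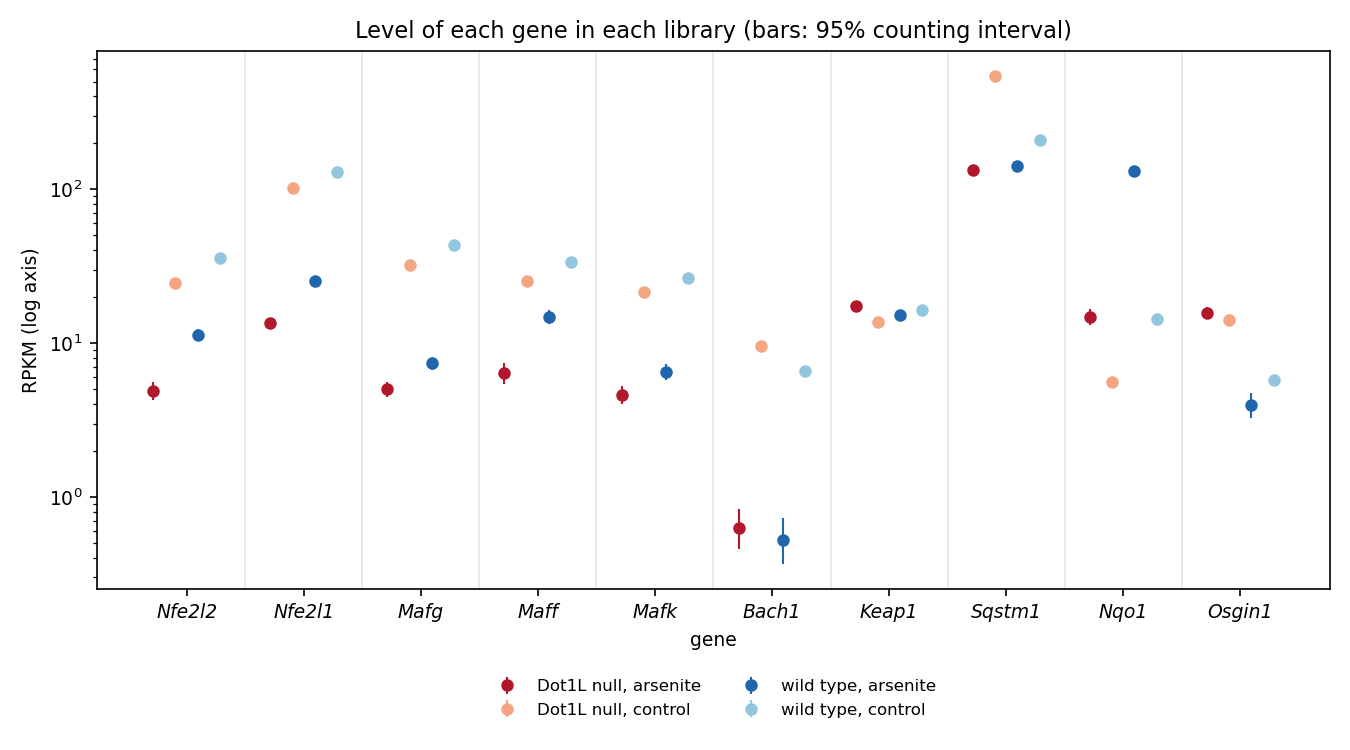
Level of each of the 10 genes in RPKM (log axis) in each library, with 95% counting intervals; each point is 1 library. NRF2, NRF1, the small Mafs and Bach1 have both arsenite points below both control points, an order not counted over all genes. Keap1 lies between 13.8 and 17.4 in all 4, and Nqo1 stands at 132 in wild type with arsenite.

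All 3 small Maf genes, which encode the DNA-binding partners of NRF2 and of BACH1 and carry no activation domain of their own, were lower with arsenite. Mafg (ENSMUSG00000051510, chromosome 11, 120625117 to 120634955) had an RPKM of 4.99 in the null with arsenite, 31.9 in the null control, 7.38 in wild type with arsenite and 43.2 in the wild-type control. Maff (ENSMUSG00000042622, chromosome 15, 79346621 to 79359078) had 6.40 and 25.1 in the null, and 14.8 and 33.5 in wild type, arsenite first in each. Mafk (ENSMUSG00000018143, chromosome 5, 139791536 to 139802653) had 4.60 and 21.6, and 6.51 and 26.5, in the same order. In each of the 3 both arsenite libraries lay below both controls, an order whose share among all genes was not counted. The fold was widest for Mafg, 6.39-fold lower in the null (5.73 to 7.15) and 5.85-fold lower in wild type (5.32 to 6.44). It was narrowest for Maff, 3.93-fold (3.35 to 4.63) and 2.27-fold (2.03 to 2.54), with Mafk between them at 4.69-fold (4.09 to 5.41) and 4.07-fold (3.61 to 4.61). All 3 were past 2-fold in both genotypes with the length trend removed, Mafg at −1.36 and −1.29, Maff at −1.72 and −1.06 and Mafk at −1.24 and −1.13, null first. The Maff call in wild type ended when all genes were centred on their median (−0.57), which left 5 of the 10 genes lower there against 19.4% of all genes, with scaling to the 75th percentile (−0.64) and with a pseudocount of 5 (−0.96).

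Summed, the small Mafs stood at 16.0 RPKM in the null with arsenite against 78.6 in the null control, and at 28.7 in wild type with arsenite against 103 in the wild-type control. Maff made up 40.0% of that sum in the null with arsenite and 32.0% in the null control. In wild type it made up 51.5% with arsenite and 32.5% in the control. The Mafg share was 31.2% against 40.6% in the null and 25.8% against 41.8% in wild type, so the most abundant small Maf transcript was Mafg in the controls and Maff with arsenite. These genes differ in length, 5613 bases for Mafg against 2119 for Maff; relative to the length trend Maff was the lowest of the 3 in the null (−1.72) and the least low in wild type (−1.06), so the order of the null turns there. The annotated span of Mafg overlaps that of the long noncoding Gm17586, which has no row in the table, and the strand setting of the counting is not given in the sources used here.

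Bach1, the heme-sensitive repressor of NRF2 target genes, had the widest arsenite fold of the 10 genes in RPKM, though not on the log2 scale with a pseudocount, where Nfe2l1 was further from 0 in the null and Mafg and Nqo1 in wild type. Bach1 (ENSMUSG00000025612, chromosome 16, 87698954 to 87733346) had an RPKM of 0.627 in the null with arsenite, 9.61 in the null control, 0.523 in wild type with arsenite and 6.59 in the wild-type control. These rest on 46, 3840, 35 and 2563 reads in the same order, which sets the width of the intervals. Bach1 was 15.3-fold lower in RPKM in the null (11.5 to 21.0) and 12.6-fold lower in wild type (9.03 to 18.1). The pseudocount shrinks this on the log2 scale to −2.70 in the null and −2.32 in wild type, or −1.52 and −1.13 with the length trend removed. In RPKM, NRF2 transcript was therefore higher relative to its repressor with arsenite, although both were lower. The ratio of Nfe2l2 to Bach1 RPKM was 7.78 in the null with arsenite (5.64 to 10.9) against 2.56 in the null control (2.46 to 2.67). In wild type it was 21.6 (15.3 to 31.4) against 5.39 (5.16 to 5.64). Bach1 is the longer gene, 6179 bases against 3796 for Nfe2l2. With the length trend removed the 2 lay nearer to each other on the log2 scale, Nfe2l2 being at −1.37 in the null and −0.85 in wild type. The part of length in the ratio was not tested.

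Keap1 varied least of the 10 genes. Keap1 (ENSMUSG00000003308, chromosome 9, 21229730 to 21239332), which encodes the sensor that targets NRF2 for destruction, had an RPKM of 17.4 in the null with arsenite, 13.8 in the null control, 15.1 in wild type with arsenite and 16.4 in the wild-type control. The highest library was 1.26 times the lowest. Arsenite against control gave an RPKM ratio of 1.26 in the null (1.17 to 1.36) and 0.919 in wild type (0.849 to 0.994), on opposite sides of 1. Centred on the median of all genes, the log2 difference was above 0 in both, 0.85 in the null and 0.44 in wild type. Most genes of its length were lower with arsenite, and with the length trend removed its log2 difference was 1.20 in the null, past 2-fold, and 0.78 in wild type. The ratio of Nfe2l2 to Keap1 RPKM was 0.280 in the null with arsenite (0.241 to 0.325) against 1.79 in the null control (1.72 to 1.86). In wild type it was 0.748 (0.665 to 0.841) against 2.16 (2.08 to 2.24), so in both genotypes the transcript in excess was Keap1 with arsenite and Nfe2l2 in the control.

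Sqstm1, which encodes p62, an autophagy receptor that binds KEAP1 and is itself a target of NRF2, was the most abundant of the 10 genes in every library. Sqstm1 (ENSMUSG00000015837, chromosome 11, 50200152 to 50210820) had an RPKM of 132 in the null with arsenite, 547 in the null control, 141 in wild type with arsenite and 210 in the wild-type control. The null control stood apart, while the arsenite libraries were close to each other. With arsenite it was 4.13-fold lower in the null (4.02 to 4.25) and 1.48-fold lower in wild type (1.44 to 1.53), log2 differences of −2.04 and −0.57. Relative to all genes the wild-type value had no direction, at −0.01 centred on their median and 0.04 with the length trend removed, where the null stood at −1.51 and −1.40. Without arsenite it was 2.61-fold higher in null than in wild-type cells (2.58 to 2.63), a log2 difference of 1.38 that 96.6% of all genes lay below. Under arsenite the null to wild type ratio was 0.936 (0.901 to 0.973), which centring turned to a log2 difference of 0.19. Its ratio to Keap1 was 7.60 in the null with arsenite against 39.7 in the null control, and 9.35 in wild type with arsenite against 12.8 in the wild-type control.

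Nqo1 was the only one of the 10 genes past 2-fold higher with arsenite. Nqo1 (ENSMUSG00000003849, chromosome 8, 107388225 to 107403205), which encodes the quinone reductase NQO1 and is a standard readout of NRF2 activity, had an RPKM of 14.7 in the null with arsenite, 5.54 in the null control, 132 in wild type with arsenite and 14.4 in the wild-type control. Null cells with arsenite thus stood about where untreated wild-type cells did. It was 9.15-fold higher in wild type (8.55 to 9.79), where 99.1% of all genes lay below its log2 difference of 3.11. In the null it was 2.66-fold higher (2.29 to 3.08), a log2 difference of 1.27 with 88.8% of genes below. With the length trend removed these were 0.95 in the null, which ends the call, and 2.77 in wild type, and with a pseudocount of 5 the null stood at 0.91. In RPKM, Nqo1 was 8.95-fold lower in null than in wild-type cells under arsenite (7.88 to 10.2) and 2.60-fold lower untreated (2.36 to 2.87). Per NRF2 transcript, the ratio of Nqo1 to Nfe2l2 RPKM was 3.02 in the null with arsenite (2.52 to 3.63) against 0.225 in the null control (0.206 to 0.245). In wild type it was 11.7 (10.5 to 12.9) against 0.406 (0.384 to 0.430).

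Osgin1, an oxidative stress-induced growth inhibitor and NRF2 target, went with genotype rather than with arsenite. Osgin1 (ENSMUSG00000074063, chromosome 8, 119425882 to 119446257) had an RPKM of 15.7 in the null with arsenite, 14.1 in the null control, 3.97 in wild type with arsenite and 5.74 in the wild-type control. Both null libraries were above both wild-type libraries, an order whose share among all genes was likewise not counted. It was 3.95-fold higher in null than in wild-type cells under arsenite (3.22 to 4.88) and 2.46-fold higher untreated (2.28 to 2.65). The ratio of arsenite to control was 1.11 in the null (1.006 to 1.22) and 0.692 in wild type (0.565 to 0.840), neither past 2-fold; centred, the log2 differences were 0.68 and 0.12. Its span overlaps the long noncoding Gm32006, which has no row in the table. The 3 NRF2 targets thus had 3 orders: the highest library was the null control for Sqstm1, wild type with arsenite for Nqo1 and the null with arsenite for Osgin1.

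**Figure D2:**
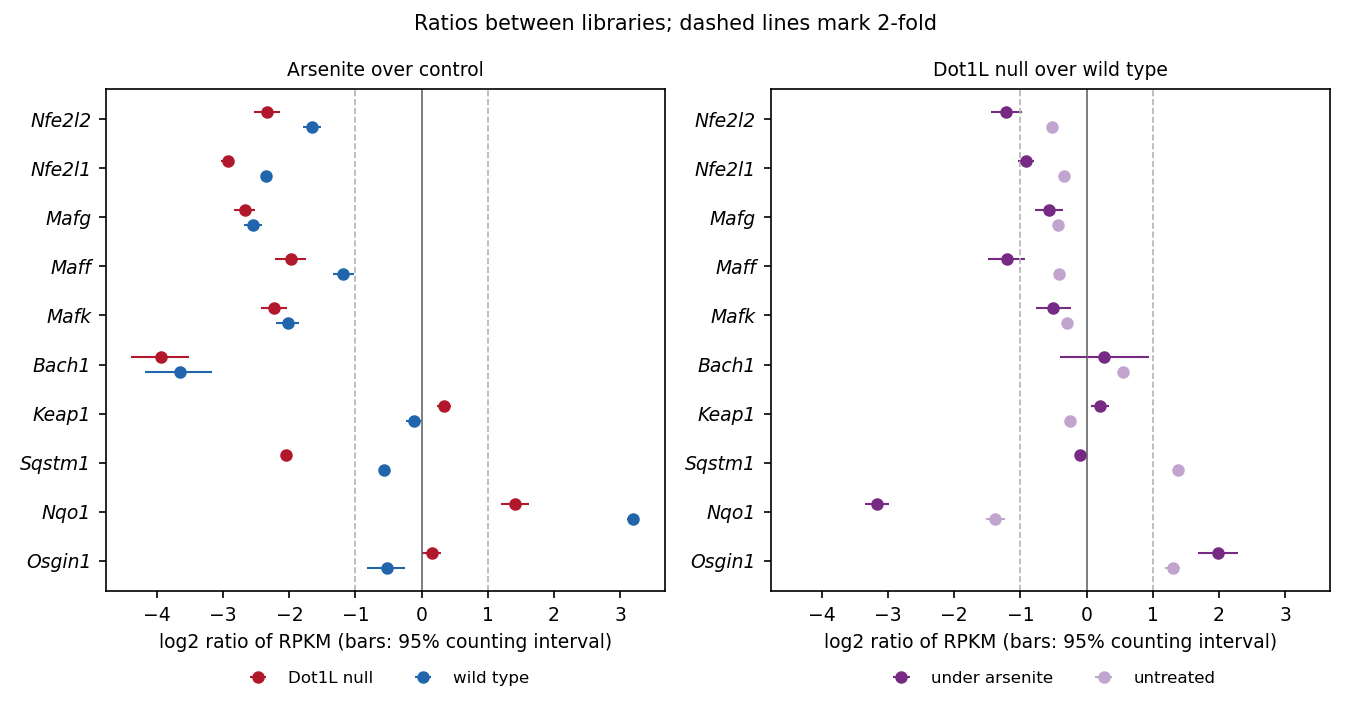
Log2 ratio of RPKM with 95% counting intervals for each gene, arsenite over control (left, null and wild type) and Dot1L null over wild type (right, under arsenite and untreated); dashed lines mark 2-fold. Nqo1 is the only gene right of the upper line for arsenite, and Sqstm1 and Osgin1 are right of it for genotype in untreated cells.

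Counted together for arsenite against control in Dot1L null cells, 7 of the 10 genes were at least 2-fold lower (Nfe2l2, Nfe2l1, the small Mafs, Bach1 and Sqstm1) and 1 was higher. Of all 12588 genes 37.1% were lower and 15.2% higher, and the medians were −2.03 for the 10 genes and −0.53 for all. In wild type 6 were lower and 1 higher, Sqstm1 being at −0.57, against 35.7% and 12.8% of all genes, with medians of −1.35 and −0.56. Many genes were thus lower in the arsenite libraries, and the 6 regulators were among them. Over all genes the difference was more negative the longer the gene: the median for genes of 500 to under 1000 bases was 1.14 in the null and 1.01 in wild type, and for genes of 5000 to under 8000 bases −1.17 in each. With this trend removed, 7 of the 10 genes were lower and 1, Keap1, higher in the null, against 21.0% and 20.0% of 12155 genes. In wild type 5 were lower, Nfe2l2 no longer among them, and 1 higher, against 15.4% and 15.8%. Depth differed along with treatment, and its part in the length trend was not tested.

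**Figure D3:**
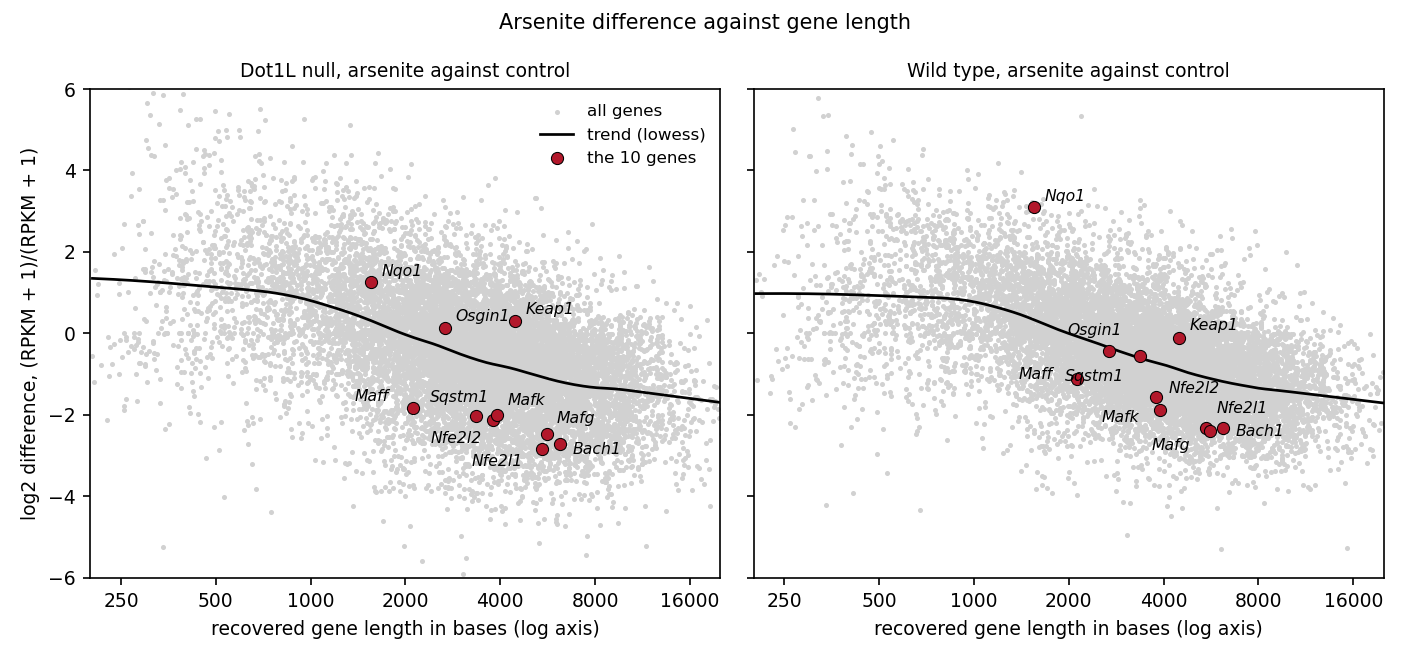
Arsenite difference of each gene, log2((RPKM + 1)/(RPKM + 1)), against the recovered gene length in bases (log axis), for Dot1L null (left) and wild type (right); the line is a lowess trend, and 25 and 21 genes lie outside the axes. Nfe2l1, Mafg and Bach1 are long genes and lie between −1.77 and −1.13 relative to the trend, while Keap1 lies above it in both panels.

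For Dot1L null against wild type under arsenite, 3 of the 10 genes were at least 2-fold lower (Nfe2l2, Maff and Nqo1) and 1 was higher (Osgin1), against 16.9% and 8.75% of all genes. Nfe2l2 (log2 −1.07) and Maff (−1.09) lay just past the threshold, and centring on the median of all genes (−0.28) took both within it, leaving Nqo1 as the 1 lower gene against 9.64% of all genes. Nqo1 was also the 1 lower gene with the length trend removed, against 8.96%. Untreated, 2 were higher (Sqstm1 and Osgin1) and 1 lower (Nqo1), against 6.45% and 14.7% of all genes. The same 2 were higher with the length trend removed, against 9.22%. The other 7 genes lay between −0.51 (Nfe2l2) and 0.48 (Bach1). The 2 genotype comparisons share no library with each other, but each shares its libraries with the arsenite comparisons.

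The arsenite difference in the null minus that in wild type was past 2-fold in 2 of the 10 genes, both negative: Nqo1 at −1.84 (1.27 in the null against 3.11 in wild type) and Sqstm1 at −1.47 (−2.04 against −0.57). Of all genes 12.8% were past 2-fold negative and 12.1% past 2-fold positive; 2.20% lay below Nqo1 and 4.85% below Sqstm1. Among the other 8 the difference ran from −0.69 for Maff to 0.58 for Osgin1, and it was −0.06 for Mafg. The untreated Sqstm1 level of the null enters both its genotype and its arsenite comparison, so these are not separate observations. None of these differences was tested.

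**Figure D4:**
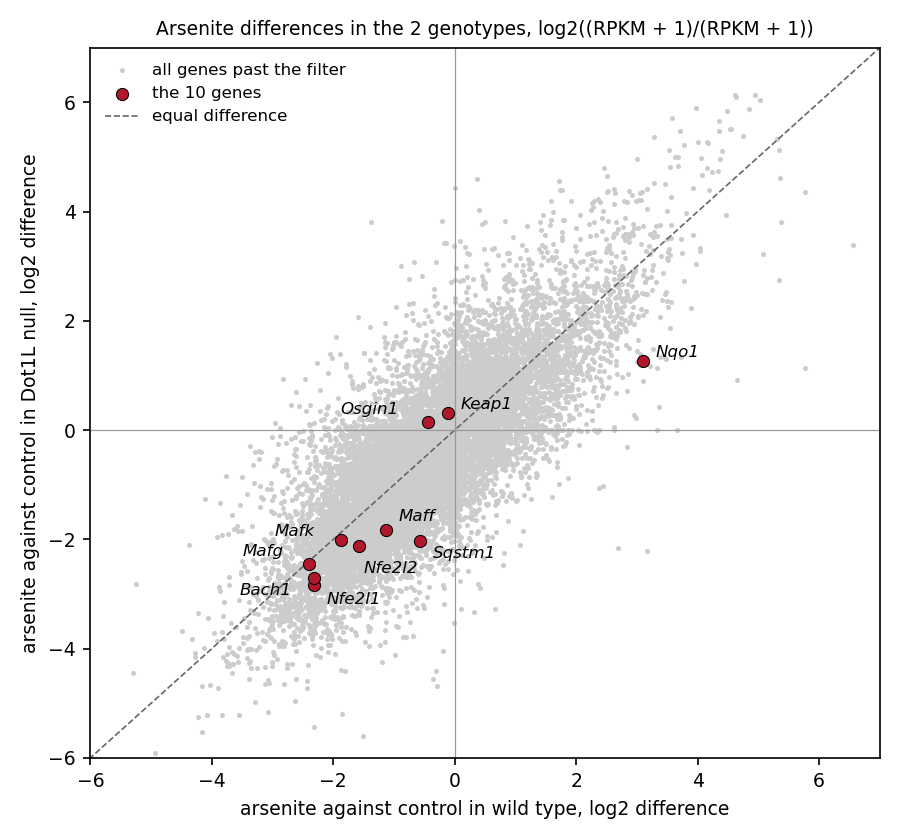
Arsenite against control in Dot1L null (vertical) plotted against the same in wild type (horizontal), as log2((RPKM + 1)/(RPKM + 1)), for all genes (grey, 2 outside the axes) and the 10 genes (red); the 2 comparisons share no library. Nqo1 and Sqstm1 lie 1.84 and 1.47 below the line of equal difference.

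Patterns over the 4 libraries were compared by the distance between mean-centred profiles of log2(RPKM + 1), which 4 values can describe only coarsely. Among the 10 genes the closest pair was Nfe2l1 and Mafg, at a distance of 0.31, followed by Nfe2l2 and Maff at 0.38. Nqo1 was farthest from all the others; its nearest was Keap1, at 3.19. Of 11239 named genes, those most like Nfe2l2 were Stard7 (0.06), Mat2b (0.08) and Tcf20 (0.11). Those most like Keap1 were Pelp1 (0.04), Arfgap1 (0.06) and Pdk2 (0.06). No gene followed Nqo1 as closely, the nearest being Uchl1 (0.55), Fxyd5 (0.59) and Cox7a1 (0.85). Uchl1, a neuronal-type ubiquitin hydrolase, had an RPKM of 34.5 in the null with arsenite, 9.24 in the null control, 234 in wild type with arsenite and 38.2 in the wild-type control.

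Around these genes, 30 other NRF2 targets were counted, enzymes and carriers of antioxidant and detoxifying metabolism. Arsenite libraries of the null had 12 at least 2-fold higher and 10 lower, against 15.2% and 37.1% of all genes. Those of wild type had 14 higher and 3 lower, against 12.8% and 35.7%. The lower counts were thus not above the shares of all genes. Their medians were 0.46 and 0.81, against −0.53 and −0.56 for all genes. With the length trend removed 9 were higher and 5 lower in the null, against 20.0% and 21.0% of all genes. In wild type 16 were higher and none lower, against 15.8% and 15.4%. Blvrb, a biliverdin and flavin reductase, had an RPKM of 176 in the null with arsenite, 20.4 in the null control, 128 in wild type with arsenite and 7.28 in the wild-type control. Gstm1, a glutathione transferase, had 332 and 31.2 in the null and 193 and 32.5 in wild type, arsenite first. Abcc4, an efflux pump, went the other way, with 0.544 and 14.5 in the null and 2.59 and 9.74 in wild type. The arsenite difference was more negative in the null by at least 2-fold in 13 of the 30, against 12.8% of all genes, with Gclc and Gclm, which make glutathione, Gsr and Txnrd1, which recycle glutathione and thioredoxin, and Hmox1, which degrades heme, among them. It was more positive in 1, Cbr1. So Nqo1 shared its higher level in wild type with 14 of the 30 and its more negative difference in the null with 13.

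NRF1 drives proteasome genes when proteasome capacity is short. Of 32 proteasome subunit and assembly genes, the null had 13 higher and 2 lower with arsenite (median 0.43), and 23 were higher and 1 lower in wild type (median 1.39), while Nfe2l1 itself was lower in both. The shares of all genes higher were 15.2% and 12.8%. Relative to the length trend, 15 of the 32 were higher in the null and 22 in wild type, against 20.0% and 15.8%. Psmb3, a subunit of the catalytic core, had an RPKM of 317 in the null with arsenite, 68.9 in the null control, 428 in wild type with arsenite and 47.1 in the wild-type control. Of 10 genes that process or modify NRF1, 6 were lower in the null and 5 in wild type, none higher. Among them Ngly1, the deglycosylase that edits NRF1, had 0.527 and 2.77 in the null and 0.998 and 5.95 in wild type, arsenite first. With the length trend removed Ngly1 was at −0.26 in the null and −0.74 in wild type, short of 2-fold in both. With the length trend removed 3 of the 10 were lower and 1 higher in the null, against 21.0% and 20.0% of all genes. In wild type 1 was lower and 1 higher, against 15.4% and 15.8%.

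Of 16 genes of the ligases and kinases that turn NRF2 over, 8 were lower and 1 higher in the null, and 6 lower and 3 higher in wild type. Relative to the length trend 5 were lower and 1 higher in the null, against 21.0% and 20.0% of all genes. In wild type 2 were lower and 3 higher, against 15.4% and 15.8%. Nedd8, the modifier that activates cullin ligases, was higher, with an RPKM of 357 and 102 in the null and 544 and 81.4 in wild type, arsenite first. Fbxw11, which encodes a substrate adaptor of the KEAP1-independent route, was lower at 4.51 and 41.9 in the null and 8.81 and 46.8 in wild type. Of 16 partners of p62 and genes of selective autophagy, 8 were lower and 2 higher in the null, and 9 lower and 4 higher in wild type. After removal of that trend 4 were lower and 1 higher in the null, against the same 21.0% and 20.0%. In wild type 3 were lower and 3 higher, against the same 15.4% and 15.8%. Gabarap, a ubiquitin-like protein to which p62 binds on autophagosomes, was among the higher, with 656 and 134 in the null and 320 and 60.0 in wild type. Sesn2, a stress-induced protein linked to p62 and KEAP1, was among the lower, with 14.0 and 98.2 in the null and 11.2 and 61.2 in wild type.

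Of 12 coactivators and repressors of NRF2, 8 were lower in the null and 9 in wild type, and none was higher. With the length trend removed this was 4 lower in the null, against 21.0% of all genes. In wild type it was 2 lower and 1 higher, against 15.4% and 15.8%. Ncoa3, a coactivator, had an RPKM of 1.15 and 10.8 in the null and 2.58 and 12.5 in wild type, arsenite first. Among other cap'n'collar, BACH and large Maf factors, Maf had 4.70 and 2.38 RPKM in the null and 1.01 and 5.04 in wild type, arsenite first, and Nfe2 and Nrl were listed at 0 in every library. Without removal of the length trend, the share of lower calls in each list reads against 37.1% of all genes in the null and 35.7% in wild type. That of higher calls reads against 15.2% and 12.8%.

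**Figure D5:**
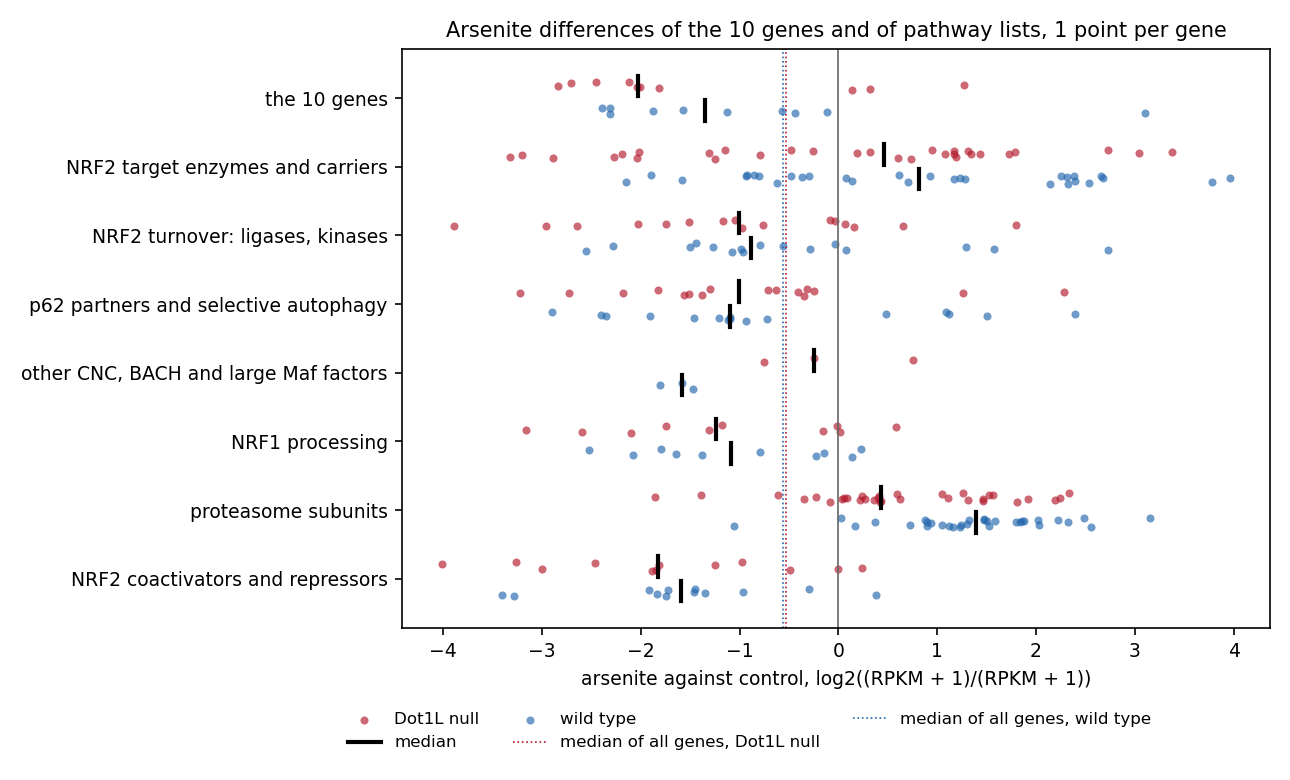
Arsenite against control as log2((RPKM + 1)/(RPKM + 1)) for the 10 genes and for 7 lists of pathway genes, 1 point per gene past the filter, Dot1L null above wild type in each row; black bars are list medians and dotted lines the medians of all genes. Proteasome subunits and NRF2 target enzymes have medians above 0 in both genotypes, while the 10 genes stand at −2.03 in the null and −1.35 in wild type.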

How the data were processed

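Expression was measured by RNA-seq in 4 libraries, 1 per group. The authors deposited RPKM values for 37224 Ensembl gene IDs; 35449 matched a symbol. Per the labels' protocols, RNA was depleted of ribosomal RNA and strand-specific libraries were sequenced as paired ends of 100 bp, while the molecule label reads polyA RNA. TopHat, HTSeq, Bowtie and deepTools and the build mm10 (GRCm38) are named, without role or version, in the submitters' processing notes; the annotation is not given in the sources used here, nor is the strand setting.

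Reads were recovered from the deposited RPKM: the total was the most frequent inverse of RPKM times length over small RNA genes, and a gene's length was the shortest that made all its values whole, to a relative tolerance of 1e-12. A length was found for all 21617 genes above 0; the true length may be a whole multiple of it. Recovered reads gave exact conditional (Clopper-Pearson) 95% intervals of ratios and exact Poisson intervals of levels, both counting error only: reads without molecular identifiers are not independent molecules. No test was made.

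Differences are log2((RPKM + 1)/(RPKM + 1)) over the 12588 genes that reached an RPKM of 1 in any library, and are called at 2-fold. This scale understates the change of low genes. The length trend was a lowess curve (fraction 0.3) on log2 length over 12155 genes of at least 200 bases. Recovery of gene lengths from given totals, the 2-fold calls, removal of the length trend and the ratio intervals were tried on simulated data. The read totals, the level intervals, the motif search, the profile distances and the alternatives other than length were not. Genes named are the 10 genes, up to 4 genes per pathway list with the largest arsenite differences, the 3 most alike to Nfe2l2, Keap1 and Nqo1 (symbols of predicted genes and small RNAs left out), and Dot1l; other symbols only list what a count holds. The genes, lists and rules were chosen with earlier results of these data known. Alternatives were the pseudocount, the filter, scaling, the length trend and thinning. Python 3.11.15, NumPy 2.4.6, pandas 2.3.3, SciPy 1.17.1, statsmodels 0.14.6 and matplotlib 3.10.9 were used.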

Additional observations from a re-analysis of the deposited data

Results flagged for a closer look

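Single libraries went opposite ways in 3 of the 10 genes, in each case with counting intervals that lie on either side of equality. How many of all genes do so was not counted, and intervals of counting error alone are narrow where reads are many. None of these differences was tested, and 1 library a group gives no replicate error. For Keap1 the ratio of arsenite to control was 1.26 in the null and 0.919 in wild type, and that of null to wild type was 1.15 under arsenite (1.04 to 1.27) and 0.838 untreated (0.803 to 0.874). On the log2 scale the null exceeded wild type by 0.43 in its arsenite effect, and the difference of the genotype effects is the same number. For Osgin1 the ratio of arsenite to control was 1.11 in the null and 0.692 in wild type, a difference of 0.58. For Sqstm1 the ratio of null to wild type was 0.936 under arsenite and 2.61 untreated, a difference of −1.47. Some of the opposite directions depend on the scaling, while the differences between the effects kept their sign under all 8 alternatives. Centred on the median of all genes, the log2 arsenite effect was 0.85 in the null and 0.44 in wild type for Keap1 and 0.68 and 0.12 for Osgin1, and the genotype effect of Sqstm1 was 0.19 under arsenite and 1.55 untreated. With the length trend removed the Keap1 arsenite effects were 1.20 and 0.78 and the Sqstm1 genotype effects 0.29 and 1.60, again in 1 direction each. Others stayed opposite in sign only, with 1 value of each pair near 0. The untreated Keap1 genotype effect was close to 0, at −0.07 when centred and −0.004 with the length trend removed. Under arsenite it was 0.47 and 0.52 in the same order. The Osgin1 arsenite effects with that trend removed were 0.51 in the null and −0.09 in wild type. Thinned to the shallowest library, Osgin1 stood at −0.05 in the null and −0.50 in wild type.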

How the results depend on the processing

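Over 8 alternatives (pseudocounts of 0.1 and 5, no filter, a filter at an RPKM of 5, median centring, scaling to the 75th percentile, removal of the length trend, and thinning of every library to the shallowest), 24 of 50 differences of the 10 genes were past 2-fold as reported, none of these changed sign, and 17 stayed past 2-fold under all 8. Calls changed in 17 of 400 cases. With a pseudocount of 5, the number higher with arsenite in the null was 0 in place of 1 (Nqo1 at 0.91), and for null against wild type the number lower was 1 under arsenite and 0 untreated, and the number higher untreated was 1. The number lower in the null under arsenite was also 1, in place of 3, under centring, 75th percentile scaling and removal of the length trend, Nfe2l2 then standing at −0.78, −0.85 and −0.70 and Maff at −0.81, −0.87 and −0.73. The filters changed no value of these genes, only the number of genes around them. Counts in the 7 pathway lists moved by over 1.5 times in 97 of 560 cases.

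No paired analysis was possible because each group holds 1 library. For the same reason no replicate could be left out. Depth limits Bach1 most: its arsenite values rest on 46 reads in the null and 35 in wild type, and its null to wild type ratio under arsenite, 1.20, has a counting interval of 0.755 to 1.92, within which a difference was not detectable.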
